A study of Mus musculus with 3 samples.

Results

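Members of the complement system were followed through the ascending aorta of a mouse model of Marfan syndrome: *C1qa*, *C1qb*, *C1qc*, *C1ra*, *C1s1*, *C3*, *C4b*, *Cfb* and *Cfd*. They were taken by gene symbol, and all 9 of the 9 symbols were present among the 32285 genes counted. Each was measured in 3 droplet single-cell libraries of male C57BL/6J mice at postnatal day 45. The WT library pooled the aortas of 3 mice, and the mgR library those of 3 Fbn1mgR/mgR mice, which carry a hypomorphic allele of the fibrillin-1 gene. The mgR-LOS library pooled 4 Fbn1mgR/mgR mice that drank losartan, a blocker of the angiotensin II type 1 receptor, at 0.6 g/L from day 16. The labels do not say if the mgR mice received a vehicle. Ascending aortas were digested with elastase and collagenase and red cells were lysed, so levels are those of cells that survived digestion. With 1 pooled library per group there was no test between groups and no estimate of how mice vary, so every interval printed here is a 95% interval for counting error only. Molecules were counted by their unique molecular identifiers (UMIs).

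Complement is a set of secreted proteases, binding proteins and receptors that marks surfaces for removal. In the classical pathway C1q binds a target and, of its proteases C1r and C1s, C1s cuts C4 and C2. All pathways meet at C3, and factor B (*Cfb*) and factor D (*Cfd*) amplify its cleavage in the alternative pathway. The liver makes most circulating components, C1q is known as a product of macrophages, and factor D, also called adipsin, as a product of fat cells.

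The 3 C1q chain genes lie side by side on the minus strand of chromosome 4 (GRCm38), *C1qb* at chr4:136880129-136886187, *C1qc* at chr4:136889804-136893065 and *C1qa* at chr4:136895917-136898803, within 18675 bases. *C1ra* (chr6:124512405-124523443, plus strand) and *C1s1* (chr6:124530345-124542359, minus strand) face each other on chromosome 6 with 6901 bases between them. On chromosome 17 lie *C4b* (chr17:34728380-34743882), *Cfb* (chr17:34856374-34862518) and *C3* (chr17:57203970-57228136), all on the minus strand, and *Cfd* is on chromosome 10 (chr10:79890853-79892655, plus strand). *Cfb* lies 85 bases from *C2*, and *C1ra*, *C1s1* and *C4b* have near-identical copies (*C1rb*, *C1s2* and *C4a*). Reads shared between copies could have been lost or split in counting, and the 3 copies stayed at 1.13 CPM (UMIs of a gene per 1000000 UMIs) or less in every class.

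RefSeq (GRCm38.p6) gave promoter windows for 6 of the 9 genes. The 250 bases before the RefSeq start are shown for 3 of them, *C1qb* as a macrophage gene and *C1s1* and *C3* as fibroblast genes, 5′ to 3′ on the strand of the gene, with motif matches in capitals. *C1s1* has a further window in RefSeq that overlaps the one shown. The windows of *C1qc* and *C1ra* reach into an exon in GENCODE vM21 and are described by their matches only.
C1qb, chr4:136886201-136886450, minus strand: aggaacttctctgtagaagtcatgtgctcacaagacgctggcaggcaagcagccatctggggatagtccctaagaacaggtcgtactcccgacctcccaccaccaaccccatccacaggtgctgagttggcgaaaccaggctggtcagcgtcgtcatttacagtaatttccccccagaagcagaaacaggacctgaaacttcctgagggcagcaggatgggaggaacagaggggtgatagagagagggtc
C1s1, chr6:124542360-124542609, minus strand: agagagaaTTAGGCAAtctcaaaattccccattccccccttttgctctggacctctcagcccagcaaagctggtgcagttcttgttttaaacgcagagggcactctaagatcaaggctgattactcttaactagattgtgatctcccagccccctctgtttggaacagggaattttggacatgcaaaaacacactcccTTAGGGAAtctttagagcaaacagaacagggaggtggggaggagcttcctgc
C3, chr17:57228137-57228386, minus strand: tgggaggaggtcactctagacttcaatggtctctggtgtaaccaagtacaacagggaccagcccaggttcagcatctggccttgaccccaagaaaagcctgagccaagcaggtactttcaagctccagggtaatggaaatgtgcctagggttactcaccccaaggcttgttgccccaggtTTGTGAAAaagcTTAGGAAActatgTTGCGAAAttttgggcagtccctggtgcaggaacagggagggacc
In all, 6 motifs were searched on both strands: GAGGAAGT (a PU.1 core), TTCNNNGAA (STAT), GAAANNGAA (interferon response), TATAAA (the core promoter box), TTNNGNAA (C/EBP) and the NF-kappaB consensus. Overlapping matches were all counted. The *C1qc* window held GAGGAAGT on the opposite strand at 195 to 188 bases before the start, and an NF-kappaB match at 41 to 32. These motifs were found in 2.44% and 7.25% of all 32851 promoter windows. TTNNGNAA, present in 36.8% of windows, was found once in *C1qc*, at 2 places each in *C1ra* and *C1s1*, and at 3 places in *C3* between 70 and 38 bases before the start. The STAT, interferon response and core promoter box letters, in 7.02%, 7.13% and 12.4% of windows, were in none of the 6 windows. The windows of *C1qb* and *Cfd* held none of the 6 motifs.

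Of 7858 WT, 10657 mgR and 14663 mgR-LOS barcodes, 5361, 8076 and 12721 had 600 to 5000 genes and at most 10% mitochondrial UMIs, with medians of 13636, 12410.5 and 8334 UMIs. *Fbn1*, the mutated gene, was at 361, 150.1 and 117 CPM over these barcodes. Marker panels without complement genes placed 96.5%, 84.2% and 92.2% of them in 1 of 4 gates, each a range of marker level and not a cell type in itself. The gates held 1312, 2403 and 3063 fibroblasts, 3653, 3055 and 7891 smooth muscle cells (SMC), 111, 218 and 172 endothelial cells (EC) and 98, 1121 and 603 macrophages. Barcodes shared by a pair of libraries numbered 11 to 34. The macrophage gate also held markers of other white cells, which summed for the monocyte and dendritic list to 217, 1147 and 416 CPM and for the neutrophil list to 3159, 415 and 46.6 CPM. Barcodes carrying 3 or more markers of another cell type numbered 2, 141 and 13 among macrophages, and ratios without them are given beside the results.

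The 9 genes fell into a macrophage group, a fibroblast group, a gene shared by both, and *Cfd*. The C1q chains were highest in macrophages and *C1ra*, *C1s1*, *C3* and *Cfb* in fibroblasts in each of the 3 libraries. *C4b* was higher in macrophages in WT and in fibroblasts in mgR and mgR-LOS, and *Cfd* had no class of its own.

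**Figure D1:**
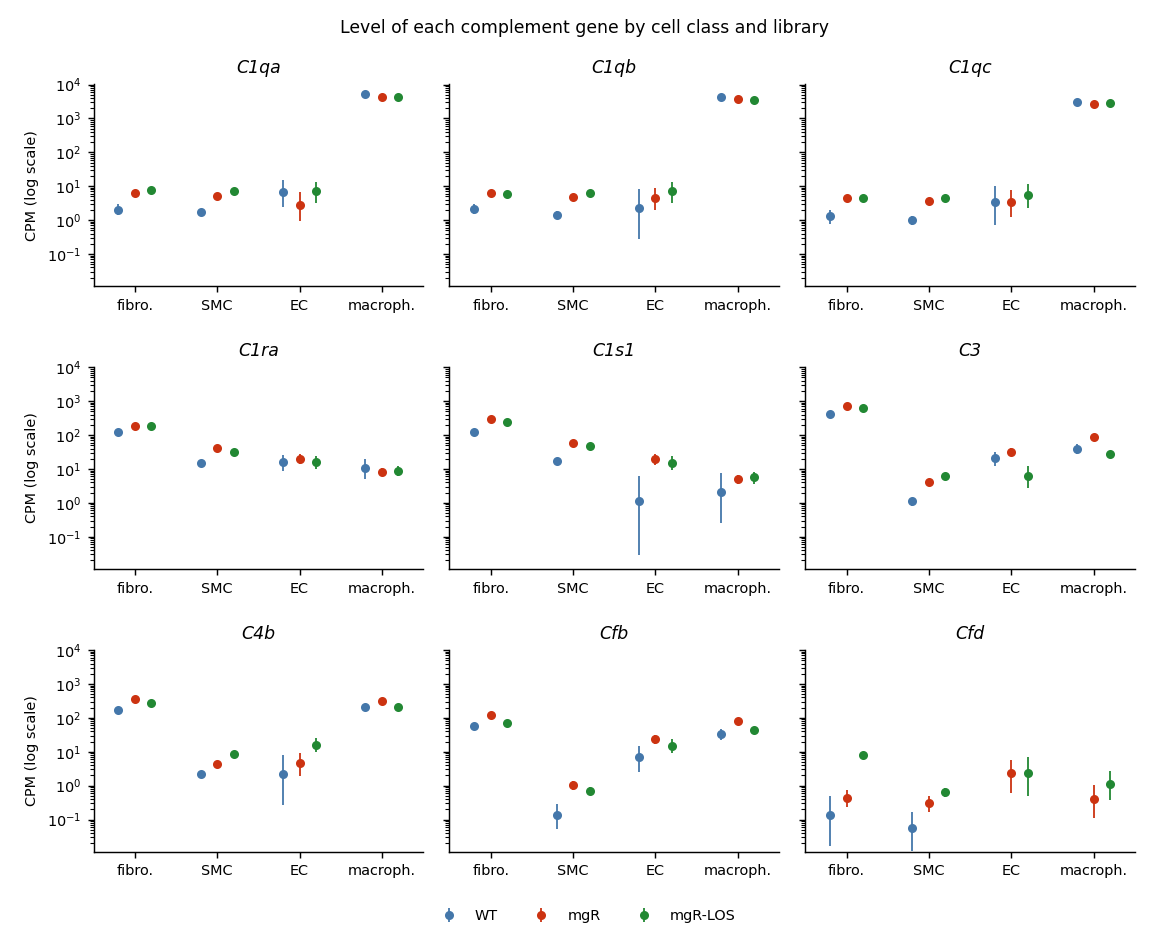
CPM (log scale) of each gene in fibroblasts, SMC, EC and macrophages, with 1 point per library and its 95% Poisson interval, points at 0 UMIs being left out. The C1q chains stand near 2666 to 5310.4 CPM in macrophages and under 10 CPM elsewhere, and the other genes except *Cfd* are highest in fibroblasts or shared between fibroblasts and macrophages.

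The C1q chains, which together form the recognition part of C1, were among the most abundant transcripts of this set. *C1qa* in macrophages was at 5310.4 (5164 to 5459.9) CPM in WT, 4378 (4337 to 4419.8) in mgR and 4244 (4184 to 4305) in mgR-LOS. *C1qb* stood at 4225 CPM in WT, 3642 in mgR and 3538 in mgR-LOS, and *C1qc* at 2984 CPM in WT, 2666 in mgR and 2761 in mgR-LOS. In each library *C1qa* led, *C1qb* followed and *C1qc* was lowest, with UMI shares of 42.4%, 33.7% and 23.8% in WT. These are UMI counts at the 3′ end, so they do not depend on transcript length in the way full-length reads do, but capture may differ between genes. In mgR the shares were 41.0%, 34.1% and 24.9%.

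Most macrophage barcodes carried the whole set of chains. After each barcode was thinned to 1000 UMIs, 80.6% of WT, 70.3% of mgR and 76.5% of mgR-LOS macrophages had all 3 chains, against 89.8%, 82.2% and 87.2% without thinning. By the same thinned count 9.18%, 17.3% and 11.3% had none, and without thinning 8.16%, 11.4% and 7.13%. The gate thus held barcodes without a C1q UMI in every library, most often in mgR by either count. The summed chains had a median of 139 UMIs per 10000 in WT, 121 in mgR and 123 in mgR-LOS, and a highest value of 327 in mgR.

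Outside macrophages the C1q chains were low. The summed chains reached 5.48, 17.3 and 18.1 CPM in fibroblasts of WT, mgR and mgR-LOS, and 4.15, 13.6 and 17.9 CPM in SMC. That was 0.0332% to 0.172% of the macrophage level in these gates, and the macrophage marker *Lyz2* stood at 0.0354% to 0.278%. Macrophage markers differed among themselves. In WT fibroblasts, with the summed chains at 0.0438%, *Ctss* was at 0.0338% and *Adgre1* at 0.0407%. *Cd14*, *Csf1r* and *Cd68* were higher there, at 0.154%, 0.231% and 0.542%. The chains also kept nearly the macrophage proportions, with *C1qa* at 38.7%, *C1qb* at 34.1% and *C1qc* at 27.1% in mgR SMC. After thinning, 1.02% (0.691% to 1.44%) of mgR SMC and 0.916% (0.575% to 1.38%) of mgR fibroblasts had a *C1qa* UMI, against 78.3% (75.8% to 80.7%) of macrophages. Without thinning the shares were 6.48%, 6.82% and 84.7%, at median depths of 15092, 12333 and 8215 UMIs. Whether expression, free RNA or mixed barcodes gave these low values was not tested.

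*C1ra* and *C1s1* encode the proteases that C1q carries. *C1ra* in fibroblasts was at 127 (121 to 132) CPM in WT, 187 (182 to 192) in mgR and 190.1 (185 to 196) in mgR-LOS. *C1s1* in fibroblasts was at 123 (117 to 128) CPM in WT, 289 (283 to 295) in mgR and 248 (242 to 254) in mgR-LOS. WT fibroblasts were the lowest of the 3 for both genes, and mgR was the highest for *C1s1*. The number of *C1s1* UMIs per *C1ra* UMI was 0.969 in WT, 1.55 in mgR and 1.305 in mgR-LOS fibroblasts.

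SMC carried both proteases at a lower level. *C1ra* was at 15.2 CPM in WT, 42.3 in mgR and 31.5 in mgR-LOS, and *C1s1* at 17.3 CPM in WT, 57.3 in mgR and 49.1 in mgR-LOS. As a share of the fibroblast level, *C1ra* in SMC was 11.98%, 22.6% and 16.6% in WT, mgR and mgR-LOS, and *C1s1* 14.1%, 19.8% and 19.8%. Of the 8 fibroblast panel genes, *Clec3b*, *Dpt*, *Dcn*, *Lum*, *Serpinf1* and *Pdgfra* stood in SMC at 0.161% to 3.48%, and the collagen genes *Col1a1* and *Col1a2* at 12.5% to 29.5%. In macrophages *C1ra* was 8.42%, 4.50% and 4.62% and *C1s1* 1.74%, 1.70% and 2.27% of the fibroblast level. The WT macrophage shares rested on 10 *C1ra* UMIs (4.04% to 15.5%) and 2 *C1s1* UMIs (0.210% to 6.28%). In EC *C1ra* was 12.5%, 10.8% and 8.40% of the fibroblast level. In WT the *C1ra* share in SMC thus lay beside that in EC, which rested on 14 UMIs (6.85% to 21.0%). *C1s1* in EC was 0.924%, 6.76% and 6.12% of the fibroblast level, with 1, 34 and 19 UMIs. It was below the *C1s1* share in SMC in each library. SMC held 31.7%, 21.0% and 32.1% of all *C1s1* UMIs, and fibroblasts 64.1%, 69.6% and 58.6%. After thinning to 1000 UMIs a *C1s1* UMI was found in 5.70% (4.90% to 6.58%) of mgR SMC and 24.1% (22.4% to 25.8%) of mgR fibroblasts, and without thinning in 41.8% and 72.6%.

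*C3*, the protein on which all pathways converge, was the most abundant of the fibroblast genes. It was at 424 (414 to 435) CPM in WT, 718 (709 to 728) in mgR and 611 (602 to 621) in mgR-LOS in fibroblasts. Fibroblasts held 92.0%, 83.0% and 85.8% of its UMIs. In macrophages it was at 38.3 CPM in WT, 84.8 in mgR and 27.7 in mgR-LOS, but 55.1% of the mgR UMIs lay in the 10 barcodes with most. *C3* was uneven between fibroblasts too, with a median of 0.977 and a highest value of 148 UMIs per 10000 in mgR.

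Among the members other than *Cfd*, *C4b*, the source of the C4 cut by C1s, had the most similar levels in fibroblasts and macrophages. Fibroblasts held 83.3%, 71.9% and 73.1% of *C4b* UMIs in WT, mgR and mgR-LOS, and macrophages 6.50%, 20.6% and 9.68%. *C4b* was at 174 (168 to 181) CPM in WT, 354 (347 to 360.4) in mgR and 275 (269 to 282) in mgR-LOS in fibroblasts. In macrophages it was at 214 (186 to 246) CPM in WT, 314 (303 to 326) in mgR and 209 (196 to 223) in mgR-LOS. Macrophages stood above fibroblasts in WT and below them in the other 2 libraries. *Cfb*, the factor B that C3b binds, was at 57.1 CPM in WT, 125 in mgR and 70.0 in mgR-LOS in fibroblasts and at 33.0 CPM in WT, 83.4 in mgR and 45.03 in mgR-LOS in macrophages. Fibroblasts were above macrophages in each library. Over the whole SMC gate, *C3*, *C4b* and *Cfb* were between 0.237% and 3.20% of the fibroblast level. The 6 fibroblast panel genes other than collagens stood at 0.161% to 3.48% over the 3 libraries, and the collagen genes at 12.5% to 29.5%. In mgR-LOS *C4b* at 3.20% lay above *Lum* at 2.88% and below *Pdgfra* at 3.48%. Whether SMC expressed *C3*, *C4b* and *Cfb* at these whole-gate levels was not tested, and *C4b* in parts of the SMC gate is given below.

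*Cfd* was nearly missing from the 4 gates. Over the barcodes that passed the filter it had 5 UMIs in WT, 47 in mgR and 266 in mgR-LOS. In WT it had 0 UMIs in EC and in macrophages, which allows up to 3.40 and 3.20 CPM at the limit of 3 UMIs. mgR-LOS fibroblasts, with 207 UMIs and 8.11 CPM (7.04 to 9.30), stood apart from WT at 0.135 and mgR at 0.429 CPM. Of these 207 UMIs, 190 came from 1 barcode, which carried at least 3 of the adipocyte markers *Adipoq*, *Plin1*, *Cidec* and *Lep*. Without it the level was 0.667 CPM.

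The deposited matrices held most *Cfd* in barcodes that the filter removed. Barcodes with at least 3 adipocyte markers numbered 1 in WT, 6 in mgR and 4 in mgR-LOS, and 1, 6 and 3 of them failed the filter, 1, 6 and 2 of them by the mitochondrial limit. They carried 311 of 330 *Cfd* UMIs in WT (94.2%), 5719 of 5811 in mgR (98.4%) and 1504 of 1603 in mgR-LOS (93.8%). A single barcode of this kind held between 190 and 2002 *Cfd* UMIs. Nearly all *Cfd* UMIs of each library were thus in a few barcodes with adipocyte markers. Its ratios within a gate rest on few UMIs and are counted below with that limit.

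**Figure D2:**
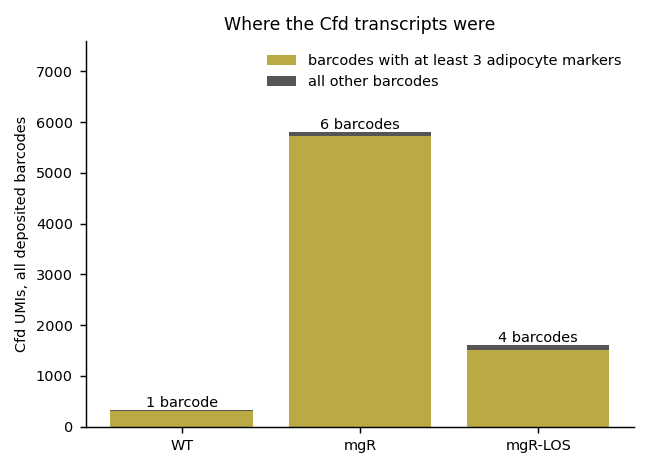
*Cfd* UMIs over all deposited barcodes of each library (bars from 0), split into barcodes with at least 3 adipocyte markers and all others, with the number of adipocyte-marker barcodes above each bar. Almost the whole of each bar belongs to 1 WT, 6 mgR and 4 mgR-LOS barcodes.

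The first comparison asked how the mutant aorta differed from WT within each class. A gene was counted as higher or lower when its ratio was at least 1.5-fold, with at least 10 UMIs in either library. In fibroblasts 8 of the 9 genes were at least 1.5-fold higher in mgR and 0 were lower, against 12.3% higher and 10.6% lower among all genes counted, and the median log2 ratio was 1.24 against -0.01 for all genes. The 3 C1q chains and *Cfd* are among the 8, each under 10 CPM, so the result rests on *C1s1*, *C3*, *C4b* and *Cfb*. mgR stood above WT by a factor of 2.36 (2.24 to 2.48) for *C1s1*, 2.19 (2.03 to 2.36) for *Cfb*, 2.03 (1.94 to 2.12) for *C4b* and 1.69 (1.65 to 1.74) for *C3*. *C1ra* stood just under the limit at 1.47 (1.399 to 1.55). Over the 11 alternative settings these 5 ratios stayed above 1, *C1s1* at 2.14 to 2.41, *Cfb* at 1.66 to 2.34, *C4b* at 1.89 to 2.27, *C3* at 1.63 to 1.73 and *C1ra* at 1.402 to 1.51.

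In SMC all 9 genes were counted as higher and 0 as lower, against 11.9% and 10.9% of all genes. Of these, *C1ra* and *C1s1* had the highest levels, and the other 7 were under 10 CPM. *C1ra* was 2.79 (2.56 to 3.03) and *C1s1* 3.31 (3.07 to 3.57) times the WT level. In graph clusters the SMC of the libraries lay apart: 1 cluster held 3106 WT and 53 mgR barcodes and another 40 and 2053. The C1q chains in SMC were at 3.07 to 3.76 times the WT level. The macrophage share of the library was 1.83% in WT and 13.9% in mgR. In mgR-LOS that share was 4.74%, and the summed chains in SMC were at 17.9 CPM, against 13.6 in mgR. A link between the share and the SMC level was not tested. In EC, 3 of the 4 genes with enough UMIs were higher and 0 lower, against 16.7% and 8.5% of all genes. *Cfb* had 6 WT and 40 mgR UMIs, a ratio of 3.38 (1.43 to 9.76), and *C1s1* 1 and 34 UMIs, a ratio of 17.3 (2.89 to 701). *C3* in EC was 1.58 (0.914 to 2.85), and WT EC held mesothelial markers at 159 CPM. Leaving out 1 WT and 1 mgR barcode with markers of other cell types took that ratio to 28.2. *Cfb* and *C1s1* in EC, *Cfb* and *Cfd* in SMC and *Cfd* in fibroblasts passed the minimum of 10 UMIs through mgR alone, so their being counted as higher follows in part from the minimum.

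In macrophages 3 of the 8 genes with enough UMIs were higher in mgR and 0 lower, against 17.2% and 12.6% of all genes. The C1q chains were not among them, with ratios of 0.824 (0.801 to 0.849), 0.862 (0.834 to 0.891) and 0.893 (0.859 to 0.929) for *C1qa*, *C1qb* and *C1qc*. Without barcodes carrying markers of other cell types the ratios were 0.894, 0.934 and 0.969. Over all passing barcodes the same genes were 6.18, 6.51 and 6.69 times the WT level, beside a macrophage share that went from 1.83% (1.49% to 2.22%) to 13.9% (13.1% to 14.7%). The higher C1q level over all barcodes thus stood beside more macrophage barcodes and a level per macrophage that was not higher. The 3 higher genes were *Cfb* at 2.53 (1.77 to 3.74), *C3* at 2.21 (1.59 to 3.18) and *C1s1*, whose 2 WT and 48 mgR UMIs gave 2.31 (0.605 to 19.6) and which passed the minimum through mgR alone. *C4b* was just under the limit at 1.47 (1.27 to 1.70). *C3* in WT macrophages rested on 36 UMIs, 61.1% of them in 1 barcode. The part that monocyte, dendritic and neutrophil markers have in these ratios was not tested beyond the removal of barcodes, which left *Cfb* at 2.17 and *C3* at 1.94.

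**Figure D3:**
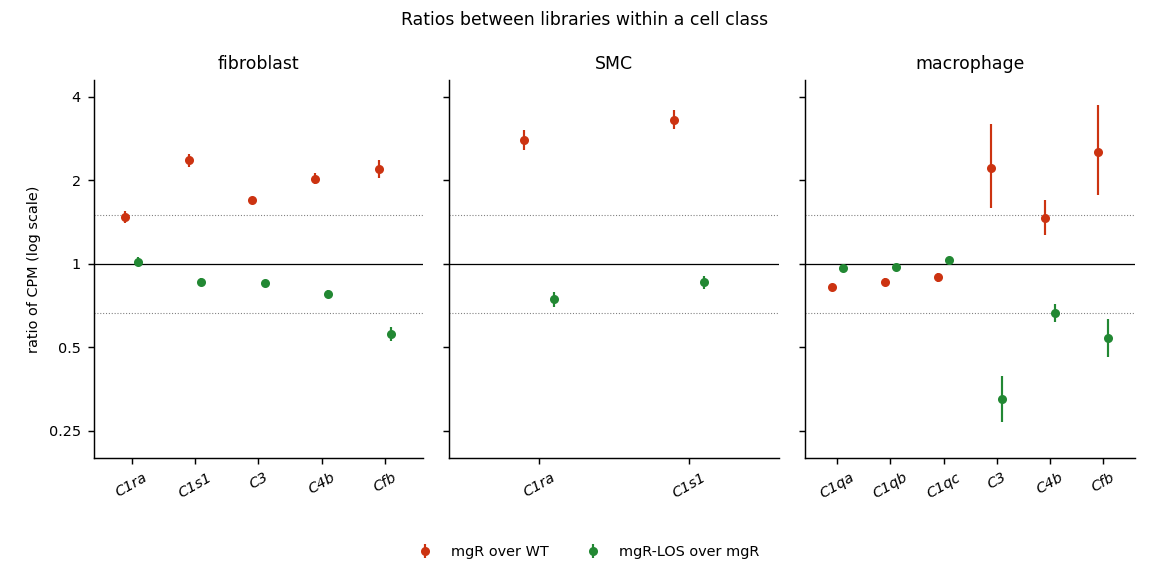
Ratio of CPM between libraries (log scale) with 95% conditional binomial intervals, for the genes with the higher levels in fibroblasts, SMC and macrophages. The solid line marks 1 and the dotted lines 1.5-fold. Every fibroblast and SMC gene is above 1 for mgR over WT, and all of these but *C1ra* in fibroblasts are below 1 for losartan over mgR. In macrophages *C3*, *C4b* and *Cfb* are also above 1 and then below it. The 2 comparisons share the mgR library.

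The second comparison set the losartan library against the mgR library, which enters both comparisons. The file headers name another CellRanger version for mgR-LOS than for mgR, and its barcodes were shallower, so version, depth and losartan cannot be told apart here. In fibroblasts 1 of the 9 genes was at least 1.5-fold lower and 1 higher, against 7.91% lower and 9.32% higher of all genes. *Cfb* was the lower, at 0.559 (0.528 to 0.592), and kept to 0.526 to 0.595 over the settings. The higher was *Cfd*, through the 1 barcode described above. *C4b* at 0.778 (0.755 to 0.802), *C3* at 0.851 (0.834 to 0.869) and *C1s1* at 0.858 (0.830 to 0.886) were lower by less than 1.5-fold, and *C1ra* was at 1.02 (0.9804 to 1.06). *Cfb* in mgR-LOS fibroblasts remained 1.23 times, and *C1s1* 2.02 times, the WT level.

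In macrophages 3 of 8 genes were lower with losartan and 0 higher, against 9.56% and 9.35% of all genes. *C3* was at 0.326 (0.268 to 0.395), *Cfb* at 0.540 (0.460 to 0.631) and *C4b* at 0.666 (0.618 to 0.717). Of the mgR *C3* UMIs 55.1% lay in 10 of 1121 barcodes. For *C4b* the ratio was 0.761 (0.705 to 0.822) in macrophages high for *Folr2*, *F13a1* and *Mrc1*, and in the low range there were 612 mgR and 2 mgR-LOS UMIs. *Cfb* was at 0.731 (0.616 to 0.866) in the high range, with 202 mgR and 3 mgR-LOS UMIs in the low. In the high range both genes were thus lower by less than 1.5-fold. *C3* was at 0.463 (0.371 to 0.575) there, with 209 and 10 UMIs in the low range. With barcodes of other markers removed, *C3* was at 0.417 and *Cfb* at 0.625. The C1q chains were at 0.969 (0.953 to 0.986), 0.971 (0.953 to 0.9899) and 1.04 (1.01 to 1.06), while over all passing barcodes they were at 0.443, 0.441 and 0.467 beside a macrophage share of 4.74%.

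In SMC 3 of the 9 genes were counted as higher with losartan and 0 as lower, against 13.9% and 6.44% of all genes. The 3 were *C3*, *C4b* and *Cfd*, each under 10 CPM over the whole gate, with ratios of 1.51, 1.99 and 2.15. *C1ra* was at 0.745 (0.701 to 0.792) and *C1s1* at 0.856 (0.814 to 0.901). In EC 2 of 5 genes were lower and 1 higher, against 12.5% and 10.5% of all genes. *C3* had 56 mgR and 8 mgR-LOS UMIs, a ratio of 0.198 (0.0817 to 0.419), *Cfb* was at 0.660 (0.361 to 1.17) and *C4b*, with 8 and 20 UMIs, at 3.47 (1.47 to 9.12). *C3* and *C4b* passed the minimum through 1 library alone, and these EC values rest on few UMIs.

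Within fibroblasts the genes did not run together. Barcodes with at least 5 UMIs of *Pi16*, a marker of adventitial fibroblasts, per 10000 numbered 645, 820 and 988, and those under 1 numbered 421, 1145 and 1496. *C3* was at 773 CPM in the high and 132 in the low range in WT, 1348 and 327 in mgR, and 1175 and 261 in mgR-LOS. *Cfb* followed the same order, with a ratio of high over low of 10.3 (7.92 to 13.7) in WT, 2.84 (2.63 to 3.07) in mgR and 4.73 (4.19 to 5.35) in mgR-LOS. *C1s1* did so too, at 4.23 (3.70 to 4.85), 1.77 (1.68 to 1.85) and 1.75 (1.66 to 1.85). *Pi16*-high fibroblasts were thus the richer in all 3 genes in every library. In the WT low range 10 barcodes held 67.8% of the 59 *Cfb* UMIs and 42.5% of the 730 *C3* UMIs.

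*C4b* behaved otherwise. It was lower in *Pi16*-high than in *Pi16*-low fibroblasts in WT, at 122 and 263 CPM, and in mgR-LOS, at 239 and 288 CPM. In mgR the order was turned, with 495 and 249 CPM. Between these high and low ranges, the *C4b* difference between mgR and WT lay in the *Pi16*-high one. The ratio was 4.05 (3.76 to 4.37) there and 0.947 (0.891 to 1.01) in the low range. For losartan the ratios were 0.483 (0.458 to 0.508) and 1.16 (1.10 to 1.21). The 246 WT, 438 mgR and 579 mgR-LOS barcodes between the ranges entered none of these ratios. *C1s1* and *Cfb* had the larger mgR over WT ratios in the low range, 4.61 (4.06 to 5.25) and 6.26 (4.81 to 8.28), against 1.92 (1.81 to 2.05) and 1.72 (1.58 to 1.88) in the high. The 10 barcodes with most *C4b* held 9.49% of its UMIs in the mgR high range, but 26.9% in the WT high and 30.9% in the WT low range. In the WT low range, the divisor of the larger ratios, 10 barcodes held 67.8% of 59 *Cfb* UMIs and 24.3% of 263 *C1s1* UMIs. The intervals do not cover such unevenness between barcodes.

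**Figure D4:**
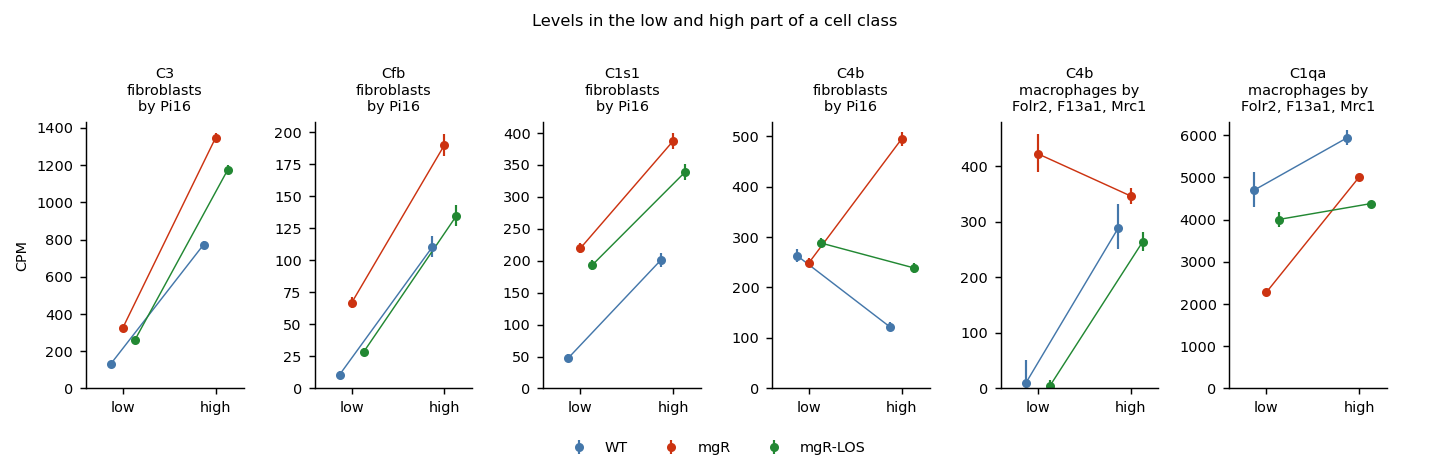
CPM (linear scale) with 95% Poisson intervals in the low and high range of *Pi16* among fibroblasts (4 panels) and of *Folr2*, *F13a1* and *Mrc1* among macrophages (2 panels), 1 line per library. *C3*, *Cfb* and *C1s1* are higher in the *Pi16*-high range in every library, *C4b* in mgR only, and *C4b* in low macrophages is near 0 in WT and mgR-LOS but at 423 CPM in mgR.

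Other fibroblast ranges, which overlap with those of *Pi16*, gave other orders. Fibroblasts high for *Comp*, *Chad* and *Fmod*, genes of tendon-like and cartilage-like matrix, had less *C3* than the low range, with ratios of 0.147 (0.135 to 0.161) in WT, 0.378 (0.364 to 0.393) in mgR and 0.154 (0.144 to 0.165) in mgR-LOS. *C4b* and *Cfb* were lower there too in each library. In that high range *C3* was 3.67 (3.35 to 4.02) times as high in mgR as in WT and 0.360 (0.333 to 0.387) times with losartan over mgR. Fibroblasts high for *Gdf10* and *Hsd11b1* had more *C1ra* and *C1s1* in each library, with *C1ra* ratios of 2.92 (2.63 to 3.24), 1.47 (1.38 to 1.55) and 1.85 (1.73 to 1.97). *C3* in the same range was higher in WT, at 1.76 (1.65 to 1.87), and lower in mgR and mgR-LOS, at 0.626 (0.607 to 0.646) and 0.579 (0.555 to 0.603). For *C4b*, mgR over WT was 1.63 and 2.29 in the high and low range of *Gdf10* and *Hsd11b1*. It was 1.70 and 2.20 in those of *Comp*, *Chad* and *Fmod*.

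Among macrophages, *C4b* followed the resident-type markers *Folr2*, *F13a1* and *Mrc1* in WT and mgR-LOS. The high range had 74, 737 and 458 barcodes and the low range 13, 204 and 75. In WT *C4b* was at 289.7 CPM in the high range and had 1 UMI in the low, and in mgR-LOS it was at 264 CPM with 2 UMIs in the low. In mgR the low range had 612 UMIs and 423 CPM, above the 347 CPM of the high range. *C1qa* was lower in the mgR low range, at 2282 CPM, than in that of WT at 4703 and mgR-LOS at 4003. The low range of mgR also held monocyte and dendritic markers at 2691 CPM and neutrophil markers at 2486 CPM, against 229 and 312 in mgR-LOS, and the WT low range neutrophil markers at 27582 CPM.

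The *C4b* of the mgR low range sat in few barcodes. Macrophages with at least 10 *C4b* UMIs per 10000, a limit set after the values were seen, numbered 8 in WT, 129 in mgR and 36 in mgR-LOS, or 8.16% (3.59% to 15.5%), 11.5% (9.70% to 13.5%) and 5.97% (4.22% to 8.17%). In WT all 8 and in mgR-LOS all 36 were in the high range. In mgR 99 were in the high range and 24 in the low, and these 24 held 18.2% of the *C4b* UMIs of mgR macrophages. The 24 had summed C1q chains at 3127 CPM, against 16473 CPM in the 99, and *C3* at 205 and *Cfb* at 267 CPM, against 113 and 144. The whole mgR low range, with the 24 in it, had C1q at 5872, *C3* at 144 and *Cfb* at 140 CPM. The whole mgR high range had 12137, 65.1 and 74.6 CPM, so the ranges themselves differed in the same directions. The 24, chosen for their *C4b*, were poor in C1q. The low ranges of WT and mgR-LOS, with 13 and 75 barcodes, held 0 *C4b*-rich barcodes. With 13 barcodes, the WT low range is too small for its 0 to set it apart from mgR. The summed fibroblast markers were at 301 CPM in the 24, 206 in the 99 and 256 in the mgR macrophages with less *C4b*, and Schwann markers at 3.87, 0 and 0.932 CPM. In the same groups monocyte and dendritic markers were at 139, 21.9 and 1296 CPM and neutrophil markers at 216, 21.9 and 462 CPM. The part of any of these markers in the *C4b* level was not tested. The median depth of the 24 was 10402 against 8144 UMIs.

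SMC with at least 5 UMIs of *Vcam1* and *Spp1* per 10000, genes raised in modulated smooth muscle, numbered 19, 293 and 157. *C1s1* was higher in them than in SMC under 1, at 2.70 (1.34 to 4.86) in WT, 1.88 (1.68 to 2.10) in mgR and 1.32 (1.06 to 1.62) in mgR-LOS, and *C1ra* at 4.14 (2.31 to 6.88), 1.66 (1.45 to 1.89) and 1.299 (0.982 to 1.69). In that high range mgR over WT was 1.997 (1.10 to 4.03) for *C1s1* and 1.03 (0.612 to 1.86) for *C1ra*, with 11 and 15 WT UMIs. Among SMC low for *Vcam1* and *Spp1*, mgR over WT was 2.87 (2.64 to 3.12) for *C1s1* and 2.57 (2.35 to 2.82) for *C1ra*. With losartan over mgR the high range gave 0.692 (0.546 to 0.869) for *C1s1* and 0.615 (0.455 to 0.819) for *C1ra*, and the low range 0.987 (0.929 to 1.05) and 0.784 (0.730 to 0.843). *C4b* in the high range was at 20.3 CPM in WT (5 UMIs), 9.86 in mgR (43) and 39.8 in mgR-LOS (60). The low range had 2.01, 3.32 and 7.28 CPM. Losartan over mgR for *C4b* was 4.04 (2.68 to 6.12) in the high range and 2.19 (1.78 to 2.72) in the low. What gave these *C4b* levels was not tested.

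Small groups of barcodes that reached no gate, set by markers of other cell types, carried some members at high levels. Barcodes with at least 3 of the mesothelial markers *Msln*, *Upk3b*, *Krt19* and *Lrrn4* numbered 10, 30 and 15, and had *C3* at 4011 (3619 to 4434) CPM in WT, 6241 (5990.3 to 6500.4) in mgR and 4319.5 (3937 to 4729.6) in mgR-LOS. These cells of the serous lining had several times the *C3* of fibroblasts in each library. In mgR they held 8.87% of all *C3* UMIs. Schwann cell barcodes, 7, 17 and 20 of them, had *C4b* at 521 (249.8 to 958) CPM in WT, 529 (390.2 to 702) in mgR and 577 (412 to 786) in mgR-LOS. The 47 neutrophil barcodes of mgR had *C3* at 255 CPM (176 to 356). Apart from these, barcodes with at least 3 neutrophil markers lay in the mgR gates, 20 in the macrophage, 5 in the fibroblast and 2 in the SMC gate.

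Of 52 other complement genes, 23 reached 20 CPM in some class of some library, and they were sorted by role. Among regulators of fibroblasts, *Serping1*, the C1 inhibitor, was at 1107, 1651 and 1782 CPM in WT, mgR and mgR-LOS. It was above any of the 9 genes in fibroblasts of the same library. In SMC *Serping1* was 2.26 (2.20 to 2.33) times as high in mgR as in WT. *Cd55*, a membrane inhibitor, was at 107, 221 and 178 CPM in fibroblasts, a ratio of 2.07 (1.96 to 2.19), but in SMC at 6.55, 3.38 and 3.73 CPM, a ratio of 0.516 (0.424 to 0.625). *Clu*, clusterin, was 0.612 (0.593 to 0.631) in fibroblasts, and *Cd59a* in EC 0.527 (0.428 to 0.647). *Colec12*, a collectin, was lower in mgR SMC, at 0.541 (0.520 to 0.562). *Cr1l*, *C1qbp*, *Calr* and *Lrp1* were above 40 CPM in fibroblasts, with less than 1.5-fold difference in mgR over WT and in losartan over mgR in fibroblasts, SMC and macrophages.

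Components of the pathway gave single differences. *C2*, the partner of C4, was at 11.4, 50.1 and 46.5 CPM in fibroblasts, 4.38 (3.73 to 5.16) times as high in mgR as in WT, and it was lower in mgR macrophages at 0.471 (0.285 to 0.817). *Colec11*, a starter of the lectin pathway, was 3.80 (3.24 to 4.48) in fibroblasts for mgR over WT and 0.636 (0.580 to 0.697) with losartan. *C7*, of the terminal pathway, went the other way at 0.358 (0.311 to 0.413). In macrophages *Cfp*, properdin, was at 317, 295 and 361 CPM, and *Fcna*, a ficolin, at 328, 218 and 324 CPM, a ratio of 0.664 (0.589 to 0.750) for mgR over WT. The receptors *C3ar1*, *C5ar1*, *Itgam*, *Itgax* and *Itgb2* were macrophage genes at 30.2 to 453 CPM and kept within 1.5-fold for mgR over WT there. *Vsig4*, a receptor for C3 fragments, was the exception at 4.81 (2.79 to 9.08), with 13 WT UMIs, and *Cd93* in macrophages was at 3.87 (2.73 to 5.68) and then 0.475 (0.415 to 0.541) with losartan. *C5ar2* stayed under 25 CPM.

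In counts, 13 of the 33 other complement genes with enough UMIs were higher in mgR fibroblasts and 3 lower, 9 and 5 of 27 in SMC, 4 and 1 of 14 in EC, and 5 and 4 of 23 in macrophages. Over all genes the shares higher and lower were 12.3% and 10.6%, 11.9% and 10.9%, 16.7% and 8.5%, and 17.2% and 12.6%. For losartan over mgR the counts were 2 higher and 9 lower of 35 in fibroblasts, 4 and 0 of 28 in SMC, 1 and 1 of 14 in EC and 2 and 2 of 23 in macrophages. The shares over all genes were 9.32% and 7.91%, 13.9% and 6.44%, 10.5% and 12.5%, and 9.35% and 9.56%. Macrophage genes counted in other gates, such as *Itgb2* in fibroblasts, are among these counts. Of the 52, 29 stayed under 20 CPM in every class and 5 had no UMI in any.

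Over the 12 profiles of 4 classes in 3 libraries, the genes most like each member were found by the correlation of log2(CPM + 1) among 5231 genes that reached 50 CPM. The 12 profiles share libraries and depth, and r is given as a description. *C1qa* was closest to *Tyrobp*, *Lilr4b* and *C3ar1* (r = 0.997, 0.997 and 0.996), *C1qb* to *Tyrobp*, *Ccl3* and *Fcgr3* (r = 0.999, 0.998 and 0.998) and *C1qc* to *Tyrobp*, *Ctss* and *Cd86* (r = 0.999, 0.999 and 0.997). For the fibroblast genes, *C1ra* was close to *Col16a1* and *Pcolce* (r = 0.984 and 0.977), *C1s1* to *Dclk1*, *Adamtsl3* and *Prrx1* (r = 0.9804, 0.978 and 0.964) and *C3* to *Olfml3*, *Il6* and *Gpx3* (r = 0.952, 0.9499 and 0.946). *C4b* was closest to *Phlda1*, *Emilin2* and *Ccnl1* (r = 0.986, 0.984 and 0.964) and *Cfb* to *Rpl39*, *Ifit3* and *Lgals3bp* (r = 0.9695, 0.967 and 0.957). *Cfd* did not reach 50 CPM, and its nearest genes were only at 0.811 or less. Among the members, the C1q chains correlated with one another at 0.996 to 0.999, *C1ra* with *C1s1* at 0.919 and *C3* with *Cfb* at 0.871.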

How the data were processed

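The authors deposited counts of UMIs per gene and barcode, without normalization, from Chromium 3′ v3.1 libraries aligned to mm10. The file headers name CellRanger 5.0.1 for WT and mgR and 6.0.1 for mgR-LOS, whereas the submitters' processing notes name Cell Ranger 6.0.1 for all. The members and lists were chosen with earlier results of these data known. The study's own limits were applied: 600 to 5000 genes per barcode, and no more than 10% of UMIs from mitochondrial genes. Doublets were not removed in the values reported, and their removal was an alternative.

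A gate took a barcode when its own panel reached 100 (fibroblast), 150 (SMC), 20 (EC) or 60 (macrophage) UMIs per 10000 and no other panel reached 100, 150, 10 or 20. The panels were SMC *Acta2*, *Myh11*, *Tagln*, *Cnn1*, *Myl9*, *Tpm2*, *Lmod1* and *Smtn*, fibroblast *Pdgfra*, *Dpt*, *Dcn*, *Lum*, *Col1a1*, *Col1a2*, *Serpinf1* and *Clec3b*, EC *Pecam1*, *Cdh5*, *Cldn5*, *Egfl7*, *Tie1*, *Kdr*, *Emcn*, *Ptprb* and *Esam*, and a macrophage panel that included *Adgre1*, *Csf1r*, *Cd68*, *Fcgr1*, *Ms4a7*, *Lyz2*, *Ctss*, *Mrc1* and *Cd14*. The limits were set after the data were seen. Barcodes within 1.2 times the own limit made up 0.356% to 4.82% of a gate.

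Counts were summed per gate and library and scaled to CPM with numpy 2.4.6 and pandas 2.3.3. Intervals (scipy 1.17.1) were exact Poisson for levels, Clopper-Pearson for shares and conditional binomial for ratios. Interval functions and fold calls were tested on simulated data. Between 0 and 6 barcodes per gate and library were too shallow for thinning to 1000 UMIs and were left out of shares. A level of 0 was set to 3 UMIs in a ratio. Named genes were the 9 members, other complement genes of a fixed list with at least 20 CPM in some class, and the 3 genes most like each member. A few genes that these lists and rules hold are not reported here. Clusters used scanpy 1.11.5 and leidenalg 0.10.2. Alternatives were a stricter gate, graph clusters, other limits on genes and mitochondrial UMIs, doublets removed by panels or by artificial neighbors (scikit-learn 1.9.0), CPM without mitochondrial, ribosomal protein, globin and 3 other genes, median-of-ratios size factors, a mean over barcodes, a fold of 2, and thinning to 2000 UMIs or none. Gene positions came from GENCODE vM21 and figures from matplotlib 3.10.9.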

Additional observations from a re-analysis of the deposited data

Results flagged for a closer look

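The C1q chains stood on opposite sides of 1 in different gates for mgR over WT. *C1qa* was at 3.17 in fibroblasts and 3.07 in SMC but 0.824 in macrophages. *C1qb* was at 2.95, 3.21 and 0.862, and *C1qc* at 3.49, 3.76 and 0.893. The levels in fibroblasts and SMC were far below those in macrophages. What gave them, and the difference between classes, were not tested.

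For losartan over mgR, *C3* was at 1.51 in SMC, against 0.851 in fibroblasts, 0.198 in EC and 0.326 in macrophages. *C4b* was at 1.99 in SMC and 3.47 in EC, against 0.778 in fibroblasts and 0.666 in macrophages. These differences between classes were not tested either. The SMC levels of both genes were under 10 CPM over the whole gate.

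Barcodes outside the comparisons held members above the level of the same barcodes in WT by more than 1.5-fold beyond counting error. In mgR barcodes that reached no gate, *C1qb* was at 141 CPM. In mgR barcodes removed by the filter, *Cfd* was at 239 CPM against 24.3 in WT, most of it in the adipocyte-marker barcodes. There *C3* was at 279, *C1qa* at 125, *C1qb* at 98.6, *C1qc* at 73.8, *C1s1* at 112, *C4b* at 88.9, *C1ra* at 75.5 and *Cfb* at 48.1 CPM.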

How the results depend on the processing

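No paired analysis was possible because each group has 1 library, and for the same reason no replicate could be left out. Over the 4 gates, 23 gene and class pairs were at least 1.5-fold higher and 0 lower in mgR over WT, and 5 higher and 6 lower for losartan over mgR. In fibroblasts, SMC, EC and macrophages 9, 9, 4 and 8 genes were counted for mgR over WT, and 9, 9, 5 and 8 for losartan. Of all genes, 11.9% to 17.2% per gate were higher and 8.5% to 12.6% lower in mgR. For losartan these were 9.32% to 13.9% and 6.44% to 12.5%. The 23 include the C1q chains in fibroblasts and SMC, *Cfd*, and pairs with few UMIs. Of the 23, 20 to 23 stayed past 1.5-fold and 22 to 23 stayed above 1 under each of 11 alternatives, of which 2 were added after the data were seen. Of the 11 pairs for losartan, 7 to 10 stayed past 1.5-fold. The exceptions were these. With graph clusters in place of the gate, 13 pairs were lower for losartan and *C3* in SMC turned to 0.484. With at least 200 genes and no maximum, 9 pairs were higher and *C3* in SMC was 0.909. With the mean over barcodes, 1 pair was lower in mgR over WT, 3 pairs were higher for losartan and *C3* in SMC was 0.974. With a fold of 2, 3 pairs were higher and 2 lower for losartan. With a mitochondrial limit of 5%, *Cfd* in SMC turned to 0.543 in mgR over WT. Removing barcodes shared between libraries kept all 61 counted ratios of members inside their intervals. The mean over barcodes moved 24 of the 61 outside and turned 1 of those past 1.5-fold to the other side of 1. Graph clusters moved 22 and turned 1, the 5% mitochondrial limit 13 and 1, and the wider gene limits 9 and 1. The other settings moved 3 to 9 and turned none. Turns were counted only among pairs past 1.5-fold, and ratios nearer to 1 also crossed it. For losartan over mgR, *Cfb* in SMC went from 0.681 to 2.18 with the stricter gate. *C1qc* in SMC went from 1.24 to 0.599 with the mean over barcodes. The cause of these moves was not tested. The number of genes highest in the same class in all 3 libraries, 7, stayed within 1.5 times.

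Shares of barcodes with a UMI depend on depth. Without thinning *C1qa* was found in 84.7% of mgR and 89.4% of mgR-LOS macrophages, and at 2000 UMIs in 82.2% of mgR. *C3* was found in 40.6%, 57.2% and 43.3% of WT, mgR and mgR-LOS fibroblasts without thinning and in 27.2%, 39.1% and 31.7% at 2000 UMIs, against 20.7%, 28.3% and 24.5% at 1000. WT macrophages (98) and the EC of each library are the smallest groups, and their counts of a few UMIs leave wide intervals.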
